A study of Homo sapiens with 22 samples.

Results

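The nuclear-encoded subunits of the respiratory chain and ATP synthase were described in Caco-2 cells exposed to faecal water (FW) of mice. Members were taken by symbol from the table of read counts: protein-coding genes named NDUFA, NDUFB, NDUFC, NDUFS or NDUFV with a number, SDHA to SDHD, the UQCR genes, CYC1, the subunits COX4 to COX8, and the ATP5F1, ATP5M and ATP5P genes, without assembly factors, pseudogenes and readthrough transcripts. This gave 84 genes of the 61487 in the table, with 36 in complex I, 4 in complex II, 9 in complex III, 17 in complex IV (NDUFA4 included, a complex IV subunit despite its name) and 18 in complex V. Of these, 77 had a count above 5 in at least 3 samples and were tested.

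Caco-2 cells, which stand in for intestinal epithelium, come from a human colorectal adenocarcinoma and are labelled wildtype and undifferentiated here. Cultures grown for 48 h were exposed for 48 h more, with the agent making up 10% of the medium. The 4 groups received PBS as vehicle (PBS, n = 4), FW of untreated mice (FWctl, n = 7), FW collected from those mice during antibiotic treatment (FWatb, n = 7) and a mixture of the antibiotics alone (ATB, n = 4). The mixture held meropenem at 0.25 g/L, neomycin at 1 g/L and vancomycin at 0.5 g/L. All cultures also received the antibiotic-antimycotic of the growth medium. The comparisons ask whether FW changes transcription, whether this depends on the gut bacteria of the donor mice, and whether the antibiotics act by themselves. FWctl replicate 1 was left out of the fits and is shown apart, since the study excluded 1 FWctl sample that it did not name, and all summaries of FWctl below rest on 6 samples.

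Oxidative phosphorylation takes electrons from NADH through complex I and from succinate through complex II, passes them by ubiquinone to complex III and by cytochrome c to complex IV, and reduces oxygen there. Complexes I, III and IV pump protons across the inner mitochondrial membrane, and complex V, the ATP synthase, uses their return flow to make ATP. Most subunits are encoded in the nucleus and imported, while a core of 13 is encoded by mitochondrial DNA. In the intestine, colonocytes are known for burning butyrate, a product of gut bacteria, in their mitochondria.

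Total counts ranged from 7118302 to 18726967 per library. Transcripts of the ribosomal DNA (rDNA) repeat took a share of counts of 0.0163% to 0.0805% in 8 libraries (PBS replicates 3 and 4, FWctl replicates 1, 2 and 3, ATB replicates 1, 3 and 4) and 1.87% to 8.19% in the other 14, which hold all FWatb libraries. In a model of group and library set, the median member was 0.13 lower in the high-rDNA than in the low-rDNA libraries on the log2 scale (lower for 68 of 77 members), whereas the 13 mitochondrially encoded subunits were 0.47 higher (median). Values within each set are therefore given beside the results for the members and the mitochondrially encoded subunits. The 8 epithelial markers summed to 37118 to 42854 normalized counts under PBS, 44896 to 50043 under FWctl, which did not overlap with PBS, 37309 to 48497 under FWatb and 40356 to 42302 under ATB. Under FWctl against PBS, 3 of them rose (CDH17, KRT8 and VIL1) and 2 fell (KRT18 and KRT20, the latter at -2.74). Of the 8 markers of other cell types, PTPRC and DCN stood at or near 0, 6 were tested, and under FWctl COL1A1 (-2.86) and PECAM1 fell while VWF rose (means of 10.8 under PBS and 43.1 under FWctl). The sum of the 8 was 218 to 242 under PBS, 115 to 178 under FWctl, 210 to 256 under FWatb and 233 to 356 under ATB. The part of these markers and of the library sets in the results was not tested beyond the values given.

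Per kilobase of the representative transcript, the normalized count under PBS was highest for COX7C (4828 per kb) and ATP5F1B (3634 per kb), the catalytic beta subunit of ATP synthase. The tissue-specific isoforms were nearly silent. COX6A2 had no count in any of the 21 samples. COX7A1, the heart and muscle isoform of subunit 7A, had 33 counts over the 21 samples, whereas its ubiquitous counterpart COX7A2 reached 2544 normalized counts per kb under PBS. The other untested members were COX4I2 (3 counts over the 21 samples), COX6B2 (38 counts), COX7B2 (1 count), COX8C (2 counts) and ATP5MGL (32 counts). These 7 genes were below the detection limit of the test at this depth.

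Against PBS, subunit genes went both ways under FWctl, with more falls than rises. Of 77 tested members, 16 were higher under FWctl and 38 were lower (edgeR's quasi-likelihood test, Benjamini-Hochberg adjusted p under 0.05 over all 20373 genes tested). Among all genes tested, 24.3% were higher and 22.1% lower. The members that rose were thus not a larger share than among all genes, while those that fell were. The median member had a log2 fold change of -0.22, against 0.02 over all genes. Falls were called in all 5 complexes, and 12 of the 16 rises were in complex I. In complex I, 12 members rose and 12 fell of 36 (median log2 fold change 0.07). In complex III, 0 rose and 6 fell of 9 (median -0.38). In complex IV, 2 rose and 7 fell of 11 (median -0.28), in complex V 2 rose and 11 fell of 17 (median -0.34), and in complex II 2 fell of 4.

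**Figure D1:**
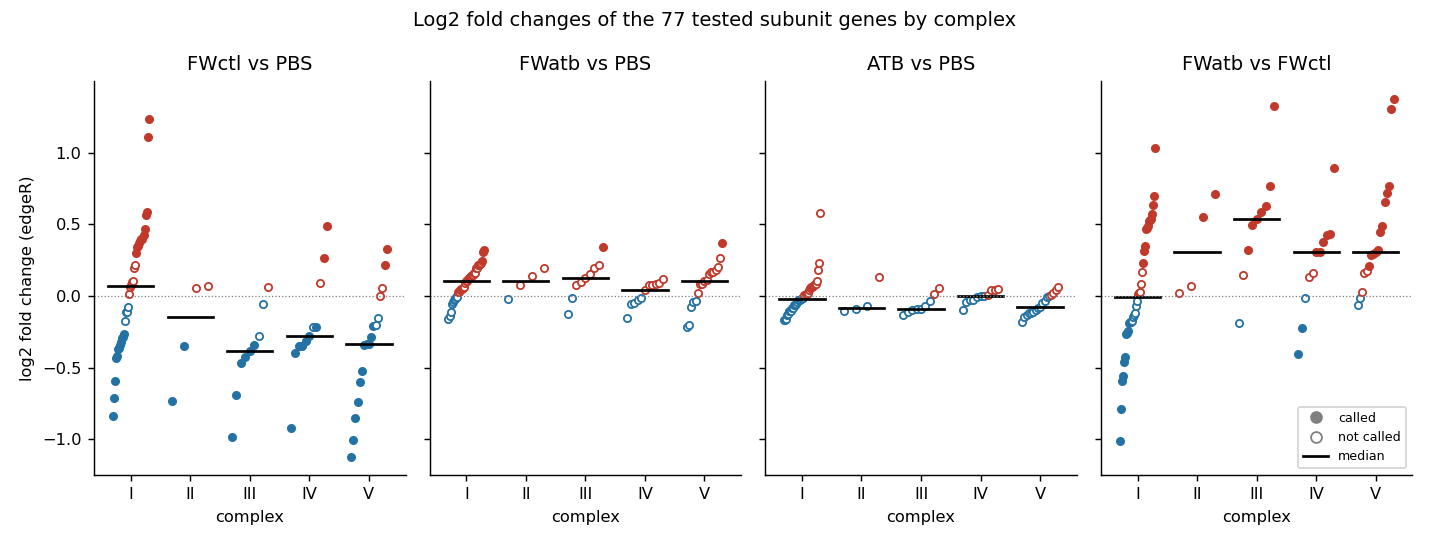
Log2 fold change of each of the 77 tested subunit genes (vertical axis) by complex (horizontal axis) in the 4 comparisons, with filled points called at an adjusted p under 0.05, open points not called and black lines at the medians. Under FWctl, complexes III, IV and V lie mostly below 0 and complex I spreads to both sides, ATB shows no filled point, and FWatb vs FWctl shows 40 members higher and 14 lower.

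The lowest fold changes were those of ATP5MC3 and ATP5MC1, genes of the c ring of ATP synthase, the rotor that carries the protons. ATP5MC1, ATP5MC2 and ATP5MC3 encode the same mature c subunit with different import sequences, and all 3 fell. In bulk RNA, fewer cells expressing a gene and less of its RNA per cell cannot be told apart. ATP5MC3 (ENSG00000154518) had normalized counts of 2229, 2193, 2779 and 2517 in the 4 PBS samples. Under FWctl, ATP5MC3 was between 966 and 1329 (median 1073). Every FWctl sample in the fit was thus below every PBS sample, and the log2 fold change was -1.12 (SE 0.09, adjusted p = 4.30e-14, edgeR). ATP5MC1 (ENSG00000159199) had 838, 785, 1005 and 1020 normalized counts under PBS. Under FWctl, ATP5MC1 was between 411 and 495 (median 449), again without overlap (0.499-fold, SE 0.09 on the log2 scale, adjusted p = 5.53e-13, edgeR). ATP5MC2 fell by 0.53 on the log2 scale (SE 0.08, adjusted p = 6.32e-07, edgeR).

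The other parts of ATP synthase moved unevenly. In the F1 head, which holds the catalytic sites, 4 of 5 genes fell and 1 rose. ATP5F1A, the alpha subunit, had 9046, 8846, 11127 and 10762 normalized counts under PBS. Under FWctl, ATP5F1A was between 5907 and 7602 (median 6298), below all PBS samples, with a log2 fold change of -0.60 (SE 0.09, adjusted p = 5.60e-07, edgeR). ATP5F1B, the beta subunit that pairs with it, was the gene of the head that rose, at 0.22 (SE 0.09, adjusted p = 0.048, edgeR). Its samples overlapped with PBS, and the call was lost over all 22 samples (adjusted p = 0.101, edgeR), with DESeq2, with each other scaling, within either library set, and on leaving out any sample but PBS replicate 4. Of the small membrane subunits, 3 of 5 fell, among them ATP5MG at -0.85 (SE 0.09, adjusted p = 2.11e-10, edgeR) and ATP5ME at -0.74 (SE 0.14). In the peripheral stalk, which holds the head still, ATP5PF fell by 0.34 and ATP5PO, the oligomycin sensitivity subunit, rose by 0.33 (not called without PBS replicate 1 or 2), while ATP5PB (0.00) and ATP5PD (0.06) did not pass the test.

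In complex III, the electron-carrying subunits fell. CYC1, cytochrome c1, had 955, 1036, 1228 and 1215 normalized counts under PBS. Under FWctl, CYC1 was between 492 and 705 (median 551), below all PBS samples (log2 fold change -0.98, SE 0.09, adjusted p = 3.11e-12, edgeR). UQCRFS1, the Rieske iron-sulfur protein, fell by 0.47 (SE 0.08, adjusted p = 9.11e-06, edgeR), and UQCRH, the hinge protein that touches cytochrome c1, by 0.69 (SE 0.09). The core protein gene UQCRC2 fell by 0.38, whereas UQCRC1 stood at -0.05 and did not pass (adjusted p = 0.602, edgeR).

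In complex IV, COX7A2 (ENSG00000112695) had 995, 1022, 1409 and 1274 normalized counts under PBS and 512 to 701 (median 641) under FWctl, again with no overlap (log2 fold change -0.92, SE 0.09, adjusted p = 4.23e-11, edgeR). COX6A1 fell by 0.35 (SE 0.09, adjusted p = 0.000691, edgeR). COX5A and COX4I1, a pair that joins the nascent core of the enzyme early, were the complex IV genes that rose. COX5A had 645, 597, 689 and 724 normalized counts under PBS and 852 to 1038 (median 926) under FWctl, all above PBS (log2 fold change 0.49, SE 0.08, adjusted p = 1.84e-06, edgeR). COX4I1 overlapped in range and rose by 0.27 (SE 0.08, adjusted p = 0.00518, edgeR), a call lost without PBS replicate 1. NDUFA4 stood at 0.09 (adjusted p = 0.451, edgeR).

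Summed over its genes, complex III had 11874 ± 1125 (SD, n = 4) normalized counts under PBS and 9408 ± 775 (SD, n = 6) under FWctl. For complex V the sums were 33491 ± 3401 and 27096 ± 2652, and for complex I 22483 ± 2028 and 24242 ± 1466, in the same samples. In the high-rDNA libraries, complex I summed to 20472 and 21136 under PBS and 22928 to 26873 under FWctl. In the low-rDNA libraries, its sums were 24810 and 23515 against 24651 and 23115. In the same order, complex III had 10627 and 11312 against 8551 to 10714, then 13158 and 12400 against 9754 and 9376. Complex V had 30507 and 30704 against 24796 to 31114, then 37205 and 35547 against 29692 and 25161.

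In complex II, which also belongs to the citric acid cycle, SDHC, a membrane anchor, had 265, 253, 237 and 234 normalized counts under PBS and 127 to 164 (median 147) under FWctl, without overlap (log2 fold change -0.74, SE 0.09, adjusted p = 1.53e-09, edgeR). SDHA, the flavoprotein that oxidizes succinate, fell by 0.35 (SE 0.09, adjusted p = 0.00116, edgeR). SDHB, the iron-sulfur subunit (0.06), and SDHD, the other anchor (0.07), did not pass the test.

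Complex I had as many rises as falls in the fit across both library sets, but not within either set. In the high-rDNA libraries, 12 rose and 7 fell (median log2 fold change 0.17), where 18.9% and 19.9% of all genes did. In the low-rDNA libraries, 6 rose and 13 fell (median -0.12), where 18.5% and 20% of all genes did. NDUFB9, an accessory subunit of the membrane arm, had 716, 708, 811 and 805 normalized counts under PBS. Under FWctl, NDUFB9 was between 1551 and 1862 (median 1594), so each FWctl sample was far above PBS (log2 fold change 1.11, SE 0.08, adjusted p = 2.79e-15, edgeR). The exons of NDUFB9 share 23.9% of the representative transcript with TATDN1 on the opposite strand, whose log2 fold change was 0.37, and whether the counting used strand is not stated. NDUFB5 (ENSG00000136521) had 629, 668, 814 and 889 normalized counts under PBS and 933 to 1326 (median 1127) under FWctl (log2 fold change 0.58, SE 0.09, adjusted p = 1.67e-06, edgeR). NDUFA8 rose by 0.57 (SE 0.09), NDUFB10 by 0.47 (SE 0.08) and NDUFS4 by 0.42 (SE 0.09). Other accessory subunits of complex I fell, most of all NDUFB6. NDUFB6 had 604, 707, 927 and 885 normalized counts under PBS and 407 to 452 (median 445) under FWctl. These ranges did not overlap either (log2 fold change -0.84, SE 0.09, adjusted p = 7.82e-10, edgeR).

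Among nuclear genes of the catalytic core of complex I, which holds the flavin and the iron-sulfur clusters, NDUFS1 and NDUFS3 rose by 0.30 (SE 0.07) and 0.38 (SE 0.09) on the log2 scale, while NDUFV2 was called lower at -0.34 (SE 0.14). The call of NDUFV2 was lost over all 22 samples, in the low-rDNA set, with the replicate block, and without PBS replicate 1 or 2 or FWctl replicate 2, 3 or 7. NDUFV1 (0.08), NDUFS7 (0.21) and NDUFS8 (0.10) did not pass the test. NDUFA7 and NDUFA13 could barely be measured, with mean normalized counts of 4.10 and 17.7 under PBS. Of their representative transcripts, 77.9% and 83.9% lie within exons of another annotated gene on the same strand, as more than 50% does for 7 members, among them NDUFV2 (90.0%), SDHA (69.4%) and ATP5PO (63.8%), so reads may have been assigned elsewhere or not at all. NDUFA7 was called at 1.24 (SE 0.44, adjusted p = 0.020, edgeR), with overlapping groups, and remains in the counts of members below. Of the 84 members, 49 have annotated pseudogenes of their name, 188 in all, to which reads could also have been split.

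**Figure D2:**
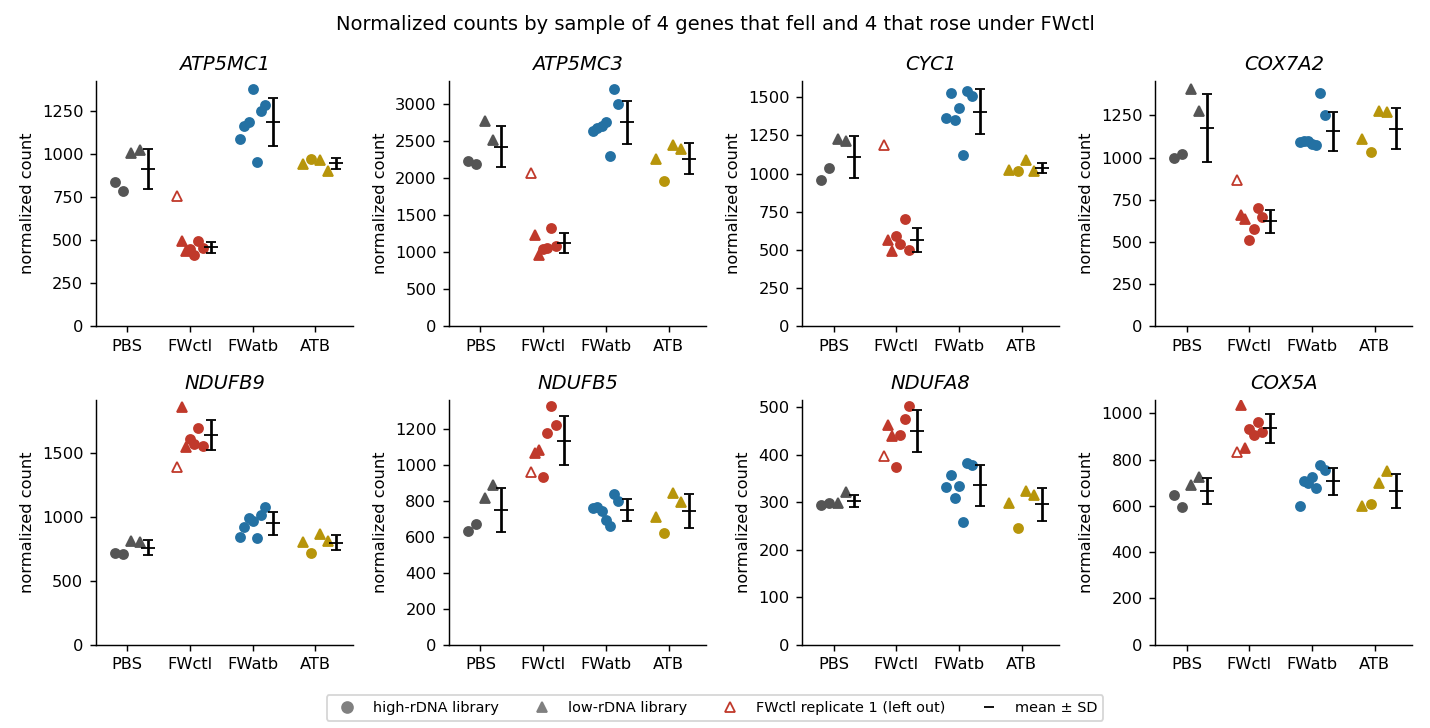
Normalized counts (vertical axes, from 0) in each sample of the 4 groups for ATP5MC1, ATP5MC3, CYC1 and COX7A2, which fell under FWctl, and NDUFB9, NDUFB5, NDUFA8 and COX5A, which rose. Circles are high-rDNA and triangles low-rDNA libraries, the open triangle is FWctl replicate 1 and bars give the mean ± SD without it; the filled FWctl points lie apart from the PBS points in each panel, and FWatb lies near or above PBS for the first 4 genes.

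The comparison was repeated within each library set, and the sets share no sample. In the high-rDNA libraries (4 FWctl and 2 PBS), 15 members were higher and 25 lower under FWctl, where 18.9% and 19.9% of all genes were, with a median log2 fold change of -0.10. The share of members that rose there was thus near that of all genes. In the low-rDNA libraries (2 and 2), 7 were higher and 41 lower, where 18.5% and 20% of all genes were, with a median of -0.35. Pearson's r between the sets was 0.93 across the 77 members, which are not independent replicates and share libraries within a set. The values of the low-rDNA set were shifted down by 0.28 (median), with 72 of 77 members lower there. Called in the same direction in both sets were 7 rises, among them NDUFA8, NDUFB5, NDUFB9, NDUFB10 and COX5A, and 24 falls, where 14.5% and 15.7% of the genes tested in both sets rose and fell. ATP5MC3 was at -0.99 and -1.32, CYC1 at -0.80 and -1.25, and NDUFB9 at 1.15 and 1.03 in the high-rDNA and low-rDNA set. The rises of NDUFA5, NDUFA7, NDUFA9, NDUFS1, NDUFS3, NDUFS4, COX4I1, ATP5F1B and ATP5PO were not called in the low-rDNA set.

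**Figure D3:**
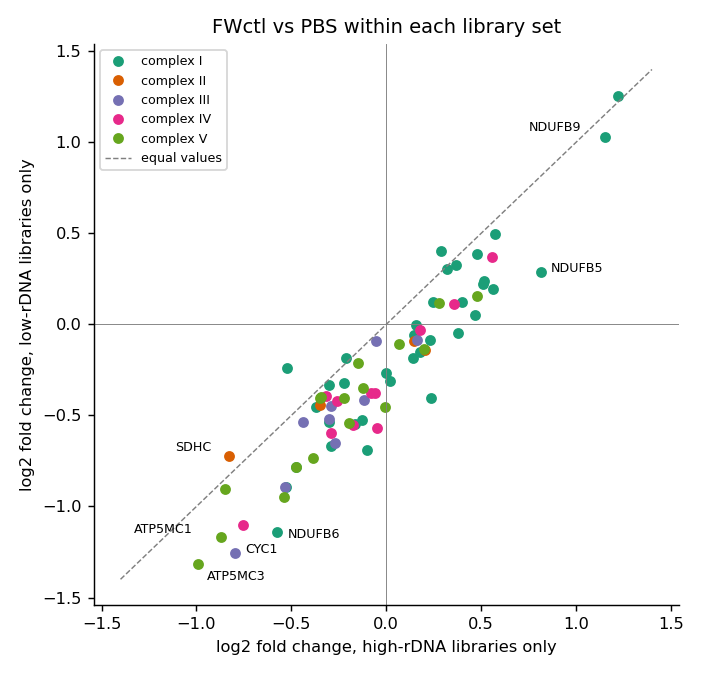
Log2 fold change of FWctl against PBS for the 77 tested members, fitted in the high-rDNA libraries alone (horizontal axis) and in the low-rDNA libraries alone (vertical axis), coloured by complex, with a dashed line of equal values. Most points lie below the dashed line, by 0.28 at the median, and the order of the genes is alike on both axes.

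FWctl replicate 1 took a middle position. Among the members called under FWctl without it, all 16 that rose were above the PBS mean in this library too, with a median log2 difference of 0.34 (0.29 to 0.55 in the other FWctl libraries). Of the 38 that fell, 28 were below the PBS mean, with a median of -0.15 (-0.51 to -0.24 in the others). CYC1 stood at 1189 normalized counts in replicate 1, within the PBS range, ATP5MC3 at 2073 and ATP5MC1 at 754, both just below PBS, and NDUFB9 at 1394, near the other FWctl samples.

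The promoters of the members were compared for the letters of sites of factors known to serve respiratory genes, in the members that rose and in those that fell. Windows from 250 bases before to 50 bases after the start (RefSeq, GRCh38.p14) were matched by symbol for 67 members. The letters of nuclear respiratory factor 1 (NRF1, GCGCANGCG, both strands) were in 32.8% of the member windows and 7.52% of all 35116 windows, noncoding genes included. For the ETS motif read by GABP (CCGGAAG), the shares were 29.9% and 10.3%, for YY1 (AAGATGGC) 16.4% and 2.89%, and for the GC box (GGGCGG) 59.7% and 45.0%. Among the members that fell under FWctl, NRF1 letters were in 12 of 31 windows and YY1 letters in 2. Among those that rose, NRF1 letters were in 3 of 12 and YY1 letters in 5, with the barely measured NDUFA7 among these 5. These are descriptions of letters in windows, not of bound factors.

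The 150 bases before the start are printed for the 3 lowest and the 3 highest fold changes under FWctl among matched members with an NRF1, ETS or YY1 motif there (normalized count averaging 100 or more, with some members not eligible for printing), to show the motifs in both directions of change. Capitals mark NRF1, ETS, YY1 and GC box letters on either strand. ATP5ME (chr4:674277-674426, minus strand), UQCRH (chr1:46303548-46303697, plus strand) and ATP5MC2 (chr12:53676084-53676233, minus strand) fell. NDUFA9 (chr12:4648964-4649113, plus strand), NDUFS3 (chr11:47578924-47579073, plus strand) and ATP5PO (chr21:33915805-33915954, minus strand) rose.
ATP5ME: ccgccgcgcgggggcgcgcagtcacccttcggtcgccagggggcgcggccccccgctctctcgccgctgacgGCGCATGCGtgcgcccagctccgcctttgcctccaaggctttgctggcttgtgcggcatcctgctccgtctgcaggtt
UQCRH: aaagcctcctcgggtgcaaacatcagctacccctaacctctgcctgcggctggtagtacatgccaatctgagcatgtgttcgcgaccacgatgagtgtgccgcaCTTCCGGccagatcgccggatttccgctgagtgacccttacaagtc
ATP5MC2: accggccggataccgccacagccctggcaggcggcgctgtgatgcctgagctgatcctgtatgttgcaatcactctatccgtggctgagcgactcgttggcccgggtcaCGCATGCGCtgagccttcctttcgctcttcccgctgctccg
NDUFA9: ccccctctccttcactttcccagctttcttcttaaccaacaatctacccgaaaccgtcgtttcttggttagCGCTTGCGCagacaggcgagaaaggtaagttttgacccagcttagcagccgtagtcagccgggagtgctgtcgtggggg
NDUFS3: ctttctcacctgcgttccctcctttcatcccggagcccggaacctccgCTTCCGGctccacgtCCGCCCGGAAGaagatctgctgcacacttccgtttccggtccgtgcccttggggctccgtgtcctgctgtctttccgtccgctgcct
ATP5PO: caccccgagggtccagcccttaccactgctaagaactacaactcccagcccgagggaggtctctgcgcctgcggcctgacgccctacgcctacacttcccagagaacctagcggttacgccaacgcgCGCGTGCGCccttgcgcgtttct
NRF1 letters stood upstream of ATP5ME, ATP5MC2, NDUFA9 and ATP5PO and ETS letters upstream of UQCRH and NDUFS3, where 1 of them overlaps a GC box, so both motifs occurred among the genes that fell and those that rose.

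Under FWatb, from the same mice during antibiotics, few subunit genes were called against PBS in the fit across both library sets. All FWatb libraries but not all PBS libraries were high-rDNA, where the median member ran lower, and values within that set follow below. Of 77 members, 5 were higher than under PBS and 0 lower, where 6.04% and 3.95% of all genes tested were higher and lower (edgeR). At an unadjusted p under 0.05, 19 members differed, a share near the 22.5% of all genes, and DESeq2 called 6 higher and 1 lower. The median log2 fold change was 0.09, with 55 members above 0. ATP5MC1 led at 0.37 (SE 0.08, adjusted p = 0.00181, edgeR), with 951 to 1375 normalized counts (median 1183) that overlapped with PBS. CYC1 rose by 0.34 (SE 0.09, adjusted p = 0.00701, edgeR), NDUFB9 by 0.32 (SE 0.08, adjusted p = 0.00414, edgeR), NDUFS6 by 0.30 (SE 0.09) and NDUFV3 by 0.24 (SE 0.08). NDUFB9 and NDUFV3 were higher in every FWatb sample than in every PBS sample. The lowest values, those of ATP5MC2 (-0.22), ATP5MG (-0.20), COX6C (-0.15), NDUFB1 (-0.14) and UQCRB (-0.13), did not pass the test, although the FWatb samples of ATP5MG (659 to 806 normalized counts) were all below PBS.

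This count depended on single libraries and on the set. Over all 22 samples, 1 member stayed called, NDUFB9 (adjusted p = 0.0272, edgeR). Without PBS replicate 1, 2 were higher and 1 lower, and without PBS replicate 2 or without FWatb replicate 2, 3 were higher. Within the high-rDNA libraries, which hold all FWatb samples but only 2 PBS samples, 70 of 77 members were above 0, with a median of 0.21, and 9 were called higher and 0 lower, where 4.19% and 1.97% of all genes were.

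ATB by itself gave 0 calls among the 77 members in edgeR and also 0 in DESeq2, where 0.255% of all genes tested were higher and 0.0295% lower (edgeR). At an unadjusted p under 0.05, which 8.3% of all genes passed, 1 member differed, NDUFC2 (log2 fold change 0.18, SE 0.09, adjusted p = 0.586, edgeR). The median log2 fold change was -0.03, with 27 members above 0. Among members averaging 100 or more normalized counts, values ran from -0.18 for ATP5F1C to 0.18 for NDUFC2. ATP5MC3 and NDUFB9, which moved far under FWctl, overlapped between ATB and PBS. SDHC did not overlap, at 266 to 276 normalized counts under ATB and 234 to 265 under PBS, and was not called. ATP5MC3 had 2263, 1965, 2446 and 2396 normalized counts under ATB, and NDUFB9 had 802, 720, 867 and 808. ATB replicate 2 was below the PBS range for ATP5MC3, and the other ATB samples were within it. Within the low-rDNA libraries (3 ATB and 2 PBS), the median was -0.12 and again 0 members were called, where 0.0517% of all genes were higher and 0.0673% lower. At an unadjusted p under 0.05, 12 members differed there, and 8.78% of all genes (edgeR).

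FWatb and FWctl share their donor mice and differ by the antibiotics and, with them, by the time of collection. All FWatb libraries but not all FWctl libraries were high-rDNA, and values within that set follow below. Between FWatb and FWctl, 40 members were higher under FWatb and 14 lower, against 23.4% and 25.4% of all genes tested (edgeR). The median was 0.23, against -0.01 over all genes. This comparison and FWctl against PBS share the FWctl samples, so their opposite signs are not separate evidence, and the values are given side by side. All 7 calls in complex III, the 12 in complex V and the 2 in complex II were higher under FWatb. In complex IV, 6 were higher and 2 lower, and in complex I, 13 were higher and 12 lower. When scaled by library size alone, 47 members were higher and 5 lower, where 5808 and 3933 of all 20373 genes tested were.

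Requiring also a fold change above 2, as the study did for this comparison, left 4 members higher and 1 lower, where 6.12% and 6.60% of all genes passed. ATP5MC1 was 2.59-fold higher under FWatb (log2 fold change 1.37, SE 0.08, adjusted p = 1.20e-18, edgeR), CYC1 2.50-fold (1.32, SE 0.08, adjusted p = 1.44e-17, edgeR), ATP5MC3 2.47-fold (1.30, SE 0.08, adjusted p = 1.39e-17, edgeR) and NDUFB6 2.05-fold (1.03, SE 0.08, adjusted p = 1.25e-13, edgeR). For each of these genes, all FWatb samples were above all FWctl samples. CYC1 ranged from 1119 to 1541 normalized counts (median 1430) under FWatb and ATP5MC3 from 2296 to 3205 (median 2705). The member lower by the 2-fold rule was the barely measured NDUFA7. COX7A2 followed at 0.89 (SE 0.08), and SDHC at 0.71 (SE 0.08), ATP5F1A at 0.71 (SE 0.08), UQCRFS1 at 0.59 (SE 0.07) and SDHA at 0.55 (SE 0.08) were also higher.

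Lower under FWatb than under FWctl were NDUFB9 at -0.79 (SE 0.07, adjusted p = 2.43e-13, edgeR), NDUFB5 at -0.59 (SE 0.08), NDUFS4 at -0.46 (SE 0.08), NDUFA8 at -0.42 (SE 0.08) and COX5A at -0.41 (SE 0.07). NDUFB9 was between 834 and 1076 normalized counts (median 969) under FWatb, below every FWctl sample and above every PBS sample. COX4I1 stood at -0.22 and NDUFS1 at -0.18, both called but small, and both calls were lost with library size alone. ATP5F1B (-0.01), NDUFV1 (0.09) and NDUFA4 (-0.02) did not pass the test. Within the high-rDNA libraries, 42 were higher and 12 lower, where 24.2% and 23.1% of all genes were, with a median of 0.28.

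The ratio of the 3 c subunit genes within a sample does not depend on scaling between samples. Per kilobase of transcript, ATP5MC1 made up 35.4% ± 1.08 (SD, n = 4) of the 3 genes in PBS samples. Its share was 31.1% ± 2.08 (SD, n = 6) with FWctl and 42.6% ± 1.78 (SD, n = 7) with FWatb, and ATB gave 36.9% ± 1.19 (SD, n = 4). ATP5MC2 made up 41.0% ± 0.577 under PBS, 49.9% ± 2.61 under FWctl and 32.7% ± 1.24 under FWatb, so the order of the 2 genes was opposite under the 2 kinds of FW. ATP5MC3 was at 23.6% ± 0.63 under PBS, 19.0% ± 1.05 under FWctl and 24.8% ± 0.992 under FWatb. FWatb samples, at 40.5% to 45.7% for ATP5MC1, did not overlap with PBS (34.3% to 36.8%) or FWctl (28.1% to 33.6%).

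The ATP5MC1 share was 4.31 percentage points lower under FWctl than under PBS (exact two-sided permutation test, p = 0.00952, adjusted over 4 comparisons 0.0127). It was 7.14 points higher under FWatb than under PBS (p = 0.00606, exact permutation test, adjusted 0.0121) and 11.4 points higher than under FWctl (p = 0.00117, exact permutation test, adjusted 0.00466). These 3 p-values are the smallest that the arrangements allow. ATB and PBS differed by 1.47 points (p = 0.143, exact permutation test). When counts were not divided by length, which gives the longer ATP5MC3 transcript more weight, the difference between FWctl and PBS was -0.883 points and no longer passed (p = 0.267, exact permutation test), while both FWatb differences did. In FWctl replicate 1, the share was 34.1%.

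**Figure D4:**
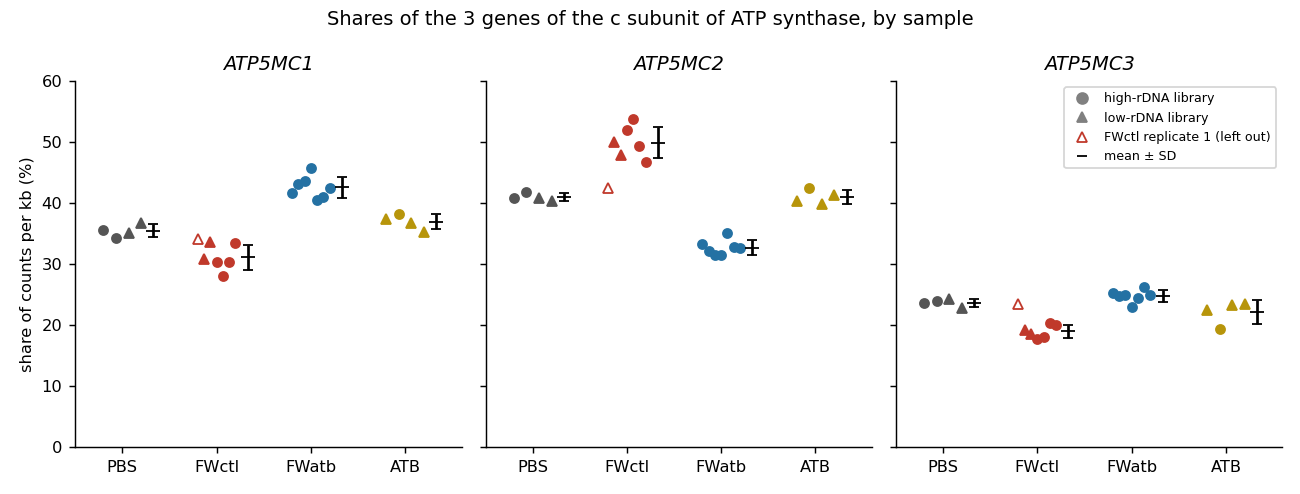
Share of counts per kb (vertical axis, in percent of the 3 genes) of ATP5MC1, ATP5MC2 and ATP5MC3 in each sample of the 4 groups, with mean ± SD bars, circles for high-rDNA and triangles for low-rDNA libraries and an open triangle for FWctl replicate 1. ATP5MC1 lies at 28.1% to 33.6% under FWctl and 40.5% to 45.7% under FWatb, and ATP5MC2 shows the opposite order.

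The mitochondrially encoded subunits moved lower under FWctl than the nuclear ones. Of 13, 0 rose and 10 fell against PBS, where 24.3% and 22.1% of all genes tested did, with a median log2 fold change of -0.65. MT-ATP6, a membrane subunit of ATP synthase, was at -0.90 (SE 0.15, adjusted p = 2.15e-06, edgeR) and MT-CO2, a copper-binding subunit of complex IV, at -0.89 (SE 0.10). Summed over genes, the members had 0.911 ± 0.198 (SD, n = 4) normalized counts for each mitochondrially encoded one in PBS samples. The ratio was 1.31 ± 0.135 (SD, n = 6) with FWctl and 1.10 ± 0.107 (SD, n = 7) with FWatb, and ATB gave 0.847 ± 0.117 (SD, n = 4). PBS samples themselves were split by library set, at 0.70 and 0.785 in the high-rDNA and 1.09 and 1.07 in the low-rDNA libraries, with FWctl at 1.12 to 1.49. Within the high-rDNA libraries, 11 mitochondrially encoded genes fell (median -0.88), and within the low-rDNA libraries 10 (median -0.58). Of all genes, 19.9% and 20% fell in these sets. Under FWatb, 2 of 13 were lower than under PBS (MT-CO1 at -0.37 and MT-CO2 at -0.35), and 9 within the high-rDNA libraries. Of all genes, 3.95% were lower, and 1.97% within the high-rDNA libraries. Against FWctl, 8 mitochondrially encoded genes were higher under FWatb, where 23.4% of all genes were, led by MT-ND6 at 0.87 and MT-ND5 at 0.80. This fit mixes the sets, since all FWatb libraries but not all FWctl libraries were high-rDNA, where these genes ran higher. Within the high-rDNA libraries, the 13 genes summed to 53004 to 69661 normalized counts under FWctl and 80207 to 90603 under FWatb.

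**Figure D5:**
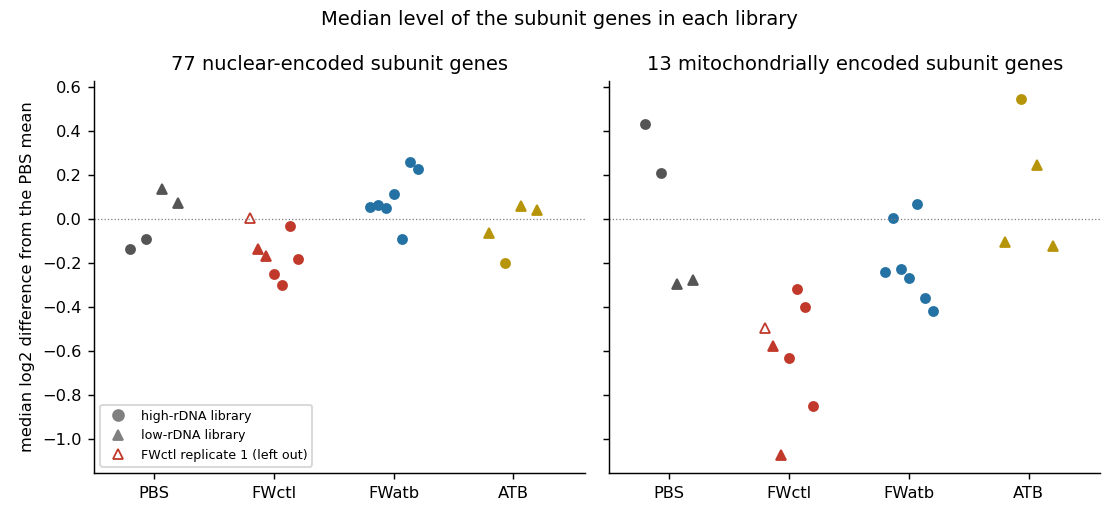
Median log2 difference from the PBS mean (vertical axis) of the 77 nuclear-encoded (left) and 13 mitochondrially encoded (right) subunit genes in each library of the 4 groups (horizontal axis), with circles for high-rDNA and triangles for low-rDNA libraries. FWctl libraries in the fit lie below 0 in both panels, and among PBS the high-rDNA libraries lie lower on the left and higher on the right.

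Genes that serve the chain without belonging to it moved otherwise under FWctl. Of 54 tested genes listed as assembly factors, 26 rose and 7 fell (median log2 fold change 0.21), where 24.3% and 22.1% of all genes tested did. SLIRP, which is on this list though it stabilizes mitochondrial messenger RNA, rose by 1.20 (SE 0.10). NDUFAF2, a complex I factor, rose by 0.92 (SE 0.12), while the complex IV factors PET117 and PET100 fell by 1.42 and 1.21. Of 11 tested regulators of mitochondrial biogenesis, 9 rose and 1 fell (median 0.43). The mitochondrial transcription genes TFB2M (1.08, SE 0.09) and POLRMT (0.92, SE 0.08) led, and the coactivator PPARGC1B fell by 0.29. Under FWatb against PBS, 6 genes listed as assembly factors rose, among them BCS1L (0.67, SE 0.11), the chaperone of the Rieske protein. Of the regulators, 5 rose, with PPARGC1B at 0.60 (SE 0.09). Of all genes tested, 6.04% were higher and 3.95% lower there. None of either list was called under ATB, nor any mitochondrially encoded subunit or citric acid cycle gene (edgeR).

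Of 14 citric acid cycle genes, 2 rose and 7 fell under FWctl, where 24.3% and 22.1% of all genes tested did. OGDH, which turns 2-oxoglutarate into succinyl-CoA, rose by 1.14 (SE 0.09) and IDH3A by 0.83 (SE 0.11), while SUCLG1, of succinyl-CoA ligase, fell by 1.15 (SE 0.08) and IDH3B, a partner of IDH3A in isocitrate dehydrogenase, by 1.07 (SE 0.09). Against FWctl, IDH3B (1.30, SE 0.08) and IDH3G (1.14, SE 0.10) were higher and OGDH (-0.91, SE 0.08) lower under FWatb. Close relatives outside the rule also moved. NDUFA4L2, a paralog of NDUFA4 known to be induced by hypoxia, had 17.6 to 39.7 normalized counts under FWctl and 0.728 to 2.69 under PBS (log2 fold change 3.76, SE 0.48, adjusted p = 1.43e-08, edgeR). CYCS, cytochrome c, rose by 0.52 (SE 0.09) under FWctl and by 0.38 (SE 0.09) under FWatb. ATP5IF1, the inhibitor of ATP synthase, fell by 0.69 (SE 0.08) and NDUFAB1, the acyl carrier protein within complex I, by 0.33 (SE 0.08) under FWctl.

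Spearman's rho across the 77 members was 0.08 with transcript length and -0.05 with the mean count for FWctl against PBS, and -0.05 and -0.01 for FWatb against FWctl. With transcript length it was 0.26 for FWatb against PBS and -0.13 for ATB against PBS. These are given as descriptions across genes that share libraries.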

How the data were processed

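The members, lists, tests and alternatives were chosen with earlier results of these data known. The deposited values are raw read counts per Ensembl gene that the authors made from stranded, rRNA-depleted total RNA with Trimmomatic 0.38, HISAT2 2.1.0 on GRCh38 and featureCounts (Subread 2.0.0), with Ensembl 105 genes; the strand setting is not given in the sources used here. They were not normalized. Symbols came from GENCODE 44, in which 61369 identifiers were found.

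Counts were normalized by TMM and tested with edgeR 4.0.16 (R 4.3.3) in 1 model of 4 groups and 21 samples, over the 20373 genes counted more than 5 times in 3 or more samples, with adjusted p under 0.05 called. Normalized counts are scaled to the mean effective library size. FWctl replicate 1 was put on the same scale. On simulated data for FWatb against FWctl (19632 genes), edgeR recovered 200 of 200 changed genes with 8 false calls. Whether this holds for the fold changes and library sets of the real data was not tested. Total counts of 7118302 to 18726967 per sample set the precision. Shares were tested by exact permutation (scipy 1.17.1). Nothing states that replicates were separate cultures on separate days, so p-values measure only the spread between these samples. The study counts its FW samples as biological replicates, so their spread can include donor mice, unlike that of PBS and ATB. The fit used a shared estimate of the spread for all groups. No replicate pair agreed within sampling noise.

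Members named were, for each comparison, the 5 highest and 5 lowest fold changes among those averaging 100 or more normalized counts, and a panel by role. Others were named after their values were seen. Values of 1 member of the panel are not reported here. FWctl and FWatb samples with the same number were taken as 1 mouse, from the study's methods. Their deviations correlated at 0.185 on average over 6 pairs (-0.0357 to 0.448), against -0.0313 for other numbers. Same-numbered ATB and PBS samples, which share no mouse, correlated at 0.28 over 4 pairs (0.0936 to 0.44), against -0.0902 for other numbers. For FWatb and PBS the mean was 0.0594 over 4 pairs, and for FWctl and PBS -0.0786 over 3. What same-numbered samples share beyond a mouse was not tested. Alternatives were other scalings and filters, DESeq2 1.42.0, all 22 samples, the library sets, a length correction, the replicate block and each sample left out.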

Additional observations from a re-analysis of the deposited data

Results flagged for a closer look

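Of 176 groups of values looked at (the named members reported here, sums per complex and the ATP5MC1 share, in each group), 11 held a sample far from the others, where chance flags about 1 in 20. The gap to the nearest sample, as a fraction of the range of its group, was 0.599 for ATP5F1B (5833 normalized counts, others 7182 to 8084), 0.576 for NDUFC2 and 0.583 for NDUFS6, all in FWatb replicate 6, which was low. It was 0.856 for COX6C (1185, others 1564 to 1628) and 0.895 for NDUFB1 in ATB replicate 2, the ATB library in the high-rDNA set, also low. In PBS replicate 3, NDUFB1 (0.947) and UQCRB (0.846) were high. CYC1 was high in ATB replicate 3 (0.958), where 1089 stood against 1018 to 1021, and NDUFB11 was low in ATB replicate 1 (0.851). In FWctl, COX6C was high in replicate 7 (0.681) and NDUFB6 low in replicate 2 (0.644).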

How the results depend on the processing

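Between FWctl and PBS, members called numbered 40 to 58 under the alternatives, against 54, and between FWatb and FWctl 51 to 58, against 54, with no called direction reversed. The count for FWatb against PBS (5) moved most: 1 over all 22 samples, 16 with library size alone and 10 with only the 2 groups compared. It was 10 with the library set as a term, 9 in the high-rDNA libraries and 8 with the length trend removed. With the replicate block it was 13 (10 higher, 3 lower), although the numbers of these groups name no shared mouse. Library size alone shifted the median of all genes by 0.105 between FWatb and FWctl and by 0.076 between FWatb and PBS. With the replicate block, FWctl against PBS gave 48 calls (10 higher, 38 lower), where again the numbers name no shared mouse. FWatb against FWctl gave 58 (46 higher, 12 lower), with the calls of NDUFA7, NDUFA9 and NDUFA13 lost and no other. The ATP5MC1 share was 11.6 points higher in paired mice (exact sign flips, p = 0.0312, the smallest 6 pairs allow). For FWctl against PBS, its difference was -0.883 points (p = 0.267, exact permutation) when not divided by length and -4.38 (p = 0.133) in the high-rDNA libraries, and for FWatb against PBS 7.63 (p = 0.0556, exact permutation) there, tests that cannot reach 0.05 with 2 PBS samples. Leaving out each sample in turn gave 49 to 57 calls for FWctl, 3 to 7 for FWatb and 0 for ATB against PBS, and 50 to 57 for FWatb against FWctl (4 to 5 with the 2-fold rule). It gave share differences of -4.81 to -3.71, 6.62 to 7.61, 1.04 to 2.0 and 10.8 to 11.9 points in the same order. ATB could not be fitted in the high-rDNA set (1 library) nor FWatb in the low-rDNA set (no library). Depth limits the 7 untested members, NDUFA7 and NDUFA13.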
